A study of Mus musculus with 6 samples.

Results

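Rcsd1 and 6 genes that encode actin capping proteins or their close partners were followed here in mouse hepatic stellate cells treated with obeticholic acid before a neuropeptide. These 7 genes were taken by symbol from the 24940 genes of the deposited exon count table: Rcsd1, Capza1, Capza2, Capzb, Capg, Twf1 and Twf2. All 7 were among the 11286 genes that passed the filter on low counts. Rcsd1 was selected on its measured fall between the groups compared here, one of the clearest in the table, so its values are given as a description, with no test. The other 6 were taken for their function, though with earlier results of these data known. All adjusted p-values are from edgeR's quasi-likelihood test with Benjamini-Hochberg adjustment over the 11286 genes, unless another fit is named.

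Actin filaments grow mainly at their barbed ends, and capping proteins sit on those ends and stop growth. CapZ, the capping protein of non-muscle and muscle cells, is a dimer of an alpha subunit (Capza1 or Capza2) and a beta subunit (Capzb). CapG (Capg) is a calcium-dependent capper of the gelsolin family that does not sever filaments. The twinfilins (Twf1 and Twf2) bind actin monomers, barbed ends and CapZ, and the product of Rcsd1, known as CapZIP, binds CapZ and is phosphorylated by stress-activated kinases. Stellate cells are liver pericytes that store vitamin A, and in culture they turn into contractile myofibroblasts rich in actin fibres.

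Primary cells of wild-type female mice of the strain C57BL/6JBomTac were cultured to day 2 and given either obeticholic acid (OCA, 10 µM), an agonist of the bile acid receptor FXR, or its vehicle DMSO. Both groups received vasoactive intestinal peptide (VIP, 500 nM) after 3 h, and the incubation went on for another 3 h. Polyadenylated RNA was sequenced from 3 DMSO+VIP and 3 OCA+VIP samples, so the comparison is of OCA with vehicle in cells that were then all exposed to VIP, and the effect of VIP was not analysed here. Whether each sample had its own mouse or culture is not stated in the labels, and p-values may therefore measure only technical spread.

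Column totals were 2.84e+06 to 4.57e+06 counts in the DMSO+VIP libraries and 4.53e+06 to 9.95e+06 in the OCA+VIP libraries, so the OCA+VIP libraries were mostly deeper. All 10 stellate cell markers were detected, with summed levels of 752 to 979 CPM (counts scaled to a column total of 1e6) with DMSO+VIP and 862 to 983 with OCA+VIP. Among them Ecm1 and Dcn passed the test as higher with OCA, and Des and Hgf as lower, so the sums hide changes in both directions. Of the 10 hepatocyte markers, 9 were detected and Cps1 was at 0, and their sum was 49.1 to 53.4 CPM with DMSO+VIP against 173 to 304 with OCA+VIP. All 7 hepatocyte markers that could be tested passed as higher with OCA. Macrophage markers summed to 15.3 to 47.3 and 32.8 to 44.8 CPM, with Timd4, C1qa and C1qb at 0 in every library. Lymphocyte markers summed to 0 to 1.31 and 7.04 to 11.5 CPM, with 7 of 10 at 0, Ptprc (CD45) among them. Endothelial markers summed to 1.61 to 6.67 and 7.39 to 12.2 CPM (8 of 10 detected, Lyve1 and Fcgr2b at 0), and cholangiocyte markers to 6.16 to 14.9 and 17.3 to 21.6 CPM (5 of 6 detected, Krt7 at 0). All 6 neutrophil markers were at 0. The part of these other cells in the results below was not tested.

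Rcsd1 lies on the minus strand of chromosome 1 (165648945 to 165708094, mm10), and the transcript counted has 7 exons, 2661 bases and an open reading frame of 412 codons. Its product has a region of similarity to that of Washc2, the subunit that ties the WASH actin-nucleating complex to CapZ. From that region the ungapped stretch of 18 codons with the most identical residues was picked. Its coding strand is shown because it is where Rcsd1 most resembles the gene of another CapZ-binding protein. Capitals mark the bases that are identical in both. The reading was made from the GRCm38 genome with GENCODE gene models, and in each gene the stretch spans 1 intron, left out here.
Rcsd1, codons 85 to 102, chr1:165657667-165659390, minus strand: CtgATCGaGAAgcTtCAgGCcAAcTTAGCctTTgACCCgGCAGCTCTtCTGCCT
Washc2, codons 948 to 965, chr6:116256272-116256651, plus strand: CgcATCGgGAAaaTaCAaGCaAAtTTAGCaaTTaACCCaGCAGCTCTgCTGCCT
Over these 54 bases 40 were identical, and 13 of the 18 codons gave the same residue. The capping protein interaction motif, which CARMIL and CD2AP proteins use to bind CapZ, was searched as a fixed pattern of letters. That pattern was found in 3 of 22075 coding genes searched (Carmil1, Cd2ap and Sh3kbp1) and in none of the 7 genes. Carmil2 and Carmil3 were not matched either. The search would therefore miss a divergent form of the motif, and it does not show that Rcsd1 lacks one.

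Rcsd1 RNA was high and even in the vehicle group and low in every OCA library. Its level was 182, 189 and 182 CPM in DMSO+VIP libraries 1 to 3 and 16.7, 33.0 and 30.1 CPM in OCA+VIP libraries 1 to 3. The groups did not overlap, and the lowest vehicle library lay well above the highest OCA library. In deposited counts these were 834, 536.5 and 680 with DMSO+VIP and 75.5, 328 and 174.5 with OCA+VIP. The mean went from 184 ± 3.88 to 26.6 ± 8.71 CPM (SD, n = 3), which is 6.93-fold lower, with a log2 fold change of -2.79 (SE 0.17) in the edgeR fit.

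The vehicle libraries differed from each other much less than the OCA libraries did: the coefficient of variation was 2.11% against 32.8%. Each of these rests on 3 libraries, and the difference in spread was not tested. OCA+VIP library 1 held the lowest level and the fewest counts. Low counts piled up near multiples of 6 in every library but OCA+VIP library 2, where this was much weaker. Divided by 6, the Rcsd1 counts were 139, 89.4 and 113 in the DMSO+VIP libraries and 12.6 and 29.1 in OCA+VIP libraries 1 and 3, so the value in OCA+VIP library 1 rests on few steps. The log2 fold change of Rcsd1 was -2.94 to -2.60 when any 1 library was left out. Among the 9034 tested genes with a mean of at least 10 CPM, 658 were called lower, and Adra2b alone had a larger fitted fall than Rcsd1. In a bulk sample, fewer cells that express a gene and less of its RNA per cell cannot be told apart.

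**Figure D1:**
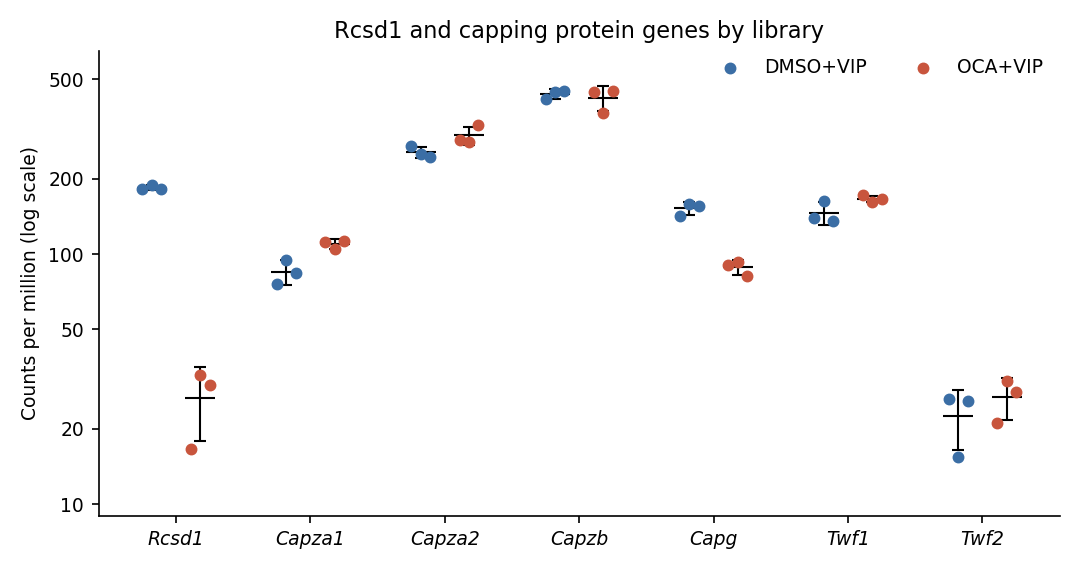
CPM on a log axis for the 7 genes in each library (points; blue, DMSO+VIP; red, OCA+VIP), with the mean (long bar) and SD (whiskers) of the 3 libraries of a group. Rcsd1 goes from 182 to 189 CPM down to 16.7 to 33.0 CPM, Capg shows a smaller gap of the same sign, and none of the other 5 genes passed the test.

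Capg was the only 1 of the other 6 genes that passed the test, and it was lower with OCA. Over the whole table, 1328 of 11286 genes passed it (edgeR's quasi-likelihood F test with Benjamini-Hochberg adjustment, threshold 0.05), or 11.8%, so 1 of 6 is near the background. Lower calls made up 6.04% of tested genes and higher calls 5.72%. The CPM ranges of the 2 groups did not overlap for 3 of the 6 (Capza1, Capza2 and Capg), against 30.6% of all tested genes. The median log2 fold change of the 6 was 0.19, against 0.00 for all tested genes.

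Capg lies on the plus strand of chromosome 6 (72549273 to 72562983). Its level was 142, 159 and 155 CPM in the DMSO+VIP libraries and 90.8, 93.0 and 81.8 CPM in the OCA+VIP libraries. Every OCA library was below every vehicle library. The mean went from 152 ± 8.67 to 88.5 ± 5.90 CPM (SD, n = 3), 1.74-fold lower, and the log2 fold change was -0.80 (SE 0.13, 95% interval -1.07 to -0.53, adjusted p = 0.00025 in edgeR). Capg stayed past the threshold in all 15 alternative fits, with an adjusted p of at most 0.0055. Capg is also expressed in macrophages, and their part in its fall was not tested. The macrophage marker sums given above overlapped between the 2 groups, but only 2 of the 10 markers passed the filter on low counts.

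The alpha subunits of CapZ had slightly higher levels with OCA, by differences that did not pass the test. Capza1 (chromosome 3, 104822781 to 104864505, minus strand) had 76.0, 94.7 and 84.2 CPM with DMSO+VIP and 112, 104 and 113 CPM with OCA+VIP. All 3 OCA libraries were above all 3 vehicle libraries. The log2 fold change of Capza1 was 0.36 (SE 0.14, 95% interval 0.06 to 0.66, adjusted p = 0.11, and 0.075 to 0.32 over the alternatives). Of the 50-base words in the Capza1 transcript, 73.8% also occur in 3 other annotated genes (Gm3608, Gm5920 and AC109149.1), and 5.20% of its exon bases overlap St7l on the opposite strand. Its reads could therefore have been split or shared, and its level is uncertain for that reason.

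Capza2 (chromosome 6, 17637010 to 17666972, plus strand), the more abundant alpha subunit gene, had 270, 251 and 244 CPM with DMSO+VIP and 286, 281 and 327 CPM with OCA+VIP. The groups again did not overlap, though the gap between them was small beside the spread within the OCA group. Its log2 fold change was 0.21 (SE 0.12, 95% interval -0.04 to 0.46, adjusted p = 0.29). The coding sequences of Capza1 and Capza2 were identical at 76.8% of aligned bases and their products at 84.6% of residues. Their transcripts share no 50-base word, and their longest shared run was 26 bases.

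Capzb, the beta subunit gene (chromosome 4, 139192899 to 139291820, plus strand), had 416, 446 and 450 CPM with DMSO+VIP and 446, 366 and 450 CPM with OCA+VIP. The ranges overlapped almost wholly, and OCA+VIP library 2 alone was low. The log2 fold change was -0.07 (SE 0.13, 95% interval -0.34 to 0.20, adjusted p = 0.80) and turned to 0.059 without OCA+VIP library 2.

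The twinfilin genes did not pass the test. Twf1 (chromosome 15, 94577948 to 94589824, minus strand) had 139, 163 and 136 CPM with DMSO+VIP and 172, 161 and 166 CPM with OCA+VIP. The groups overlapped through DMSO+VIP library 2, and the log2 fold change was 0.17 (SE 0.13, 95% interval -0.09 to 0.44, adjusted p = 0.43). Irak4 overlaps 12.4% of the exon bases of Twf1 on the opposite strand, and 11.6% of the 50-base words of Twf1 also occur in Gm4887. Whether counting used strand is not given in the sources used here, so reads from Twf1 and Irak4 at that end cannot be told apart.

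Twf2 (chromosome 9, 106203108 to 106215387, plus strand) was the least abundant of the 6 and had 26.3, 15.5 and 25.9 CPM with DMSO+VIP and 21.2, 31.2 and 28.2 CPM with OCA+VIP. The groups overlapped and the vehicle libraries were spread as widely as the groups. Its log2 fold change was 0.23 (SE 0.27, 95% interval -0.32 to 0.78, adjusted p = 0.64), the widest interval of the 6 genes tested. Twf1 and Twf2 were identical at 65.3% of aligned coding bases and 66.6% of residues.

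Levels of different genes were compared as CPM per kb of exon. With DMSO+VIP the order was Capzb (246 ± 10.6), Capg (110 ± 6.25), Capza2 (102 ± 5.45), Rcsd1 (69.3 ± 1.46), Twf1 (49.3 ± 5.05), Capza1 (26.7 ± 2.96) and Twf2 (14.3 ± 3.87; CPM per kb, SD, n = 3). The ranges of Capg and Capza2 overlapped, and no other neighbours in this order did. Rcsd1 thus stood in the middle of the set in vehicle-treated cells.

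With OCA+VIP the order was Capzb (237 ± 26.8), Capza2 (119 ± 10.1), Capg (63.8 ± 4.25), Twf1 (56.1 ± 1.74), Capza1 (34.5 ± 1.51), Twf2 (17.0 ± 3.25) and Rcsd1 (9.98 ± 3.27). No neighbours overlapped in this group, but some nearly touched. The lowest Capg library (59.0) lay just above the highest Twf1 library (57.9). Likewise, the lowest Twf2 library (13.4) lay just above the highest Rcsd1 library (12.4 CPM per kb). Rcsd1 moved from the fourth place to the last, and Capg fell below Capza2.

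**Figure D2:**
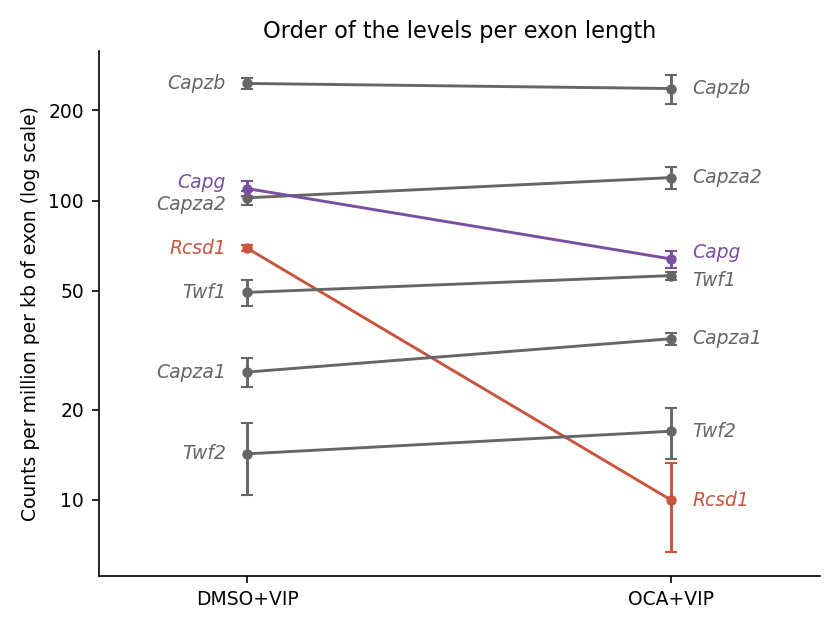
Mean level per kb of exon on a log axis for the 7 genes in each group, with SD whiskers over 3 libraries. Rcsd1 (red) drops from 69.3 to 9.98 CPM per kb and crosses 3 other genes, Capg (purple) crosses Capza2, and the order of the other genes is kept.

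The balance between these RNAs can be read within each library, where total depth cancels. Rcsd1 made up 11.4%, 11.2% and 11.1% of the summed per-kb level of the 7 genes in the DMSO+VIP libraries and 1.15%, 2.46% and 2.0% in the OCA+VIP libraries. For each unit of Capzb there was 0.282 ± 0.011 of Rcsd1 with DMSO+VIP and 0.043 ± 0.018 with OCA+VIP (per kb, SD, n = 3). These ratios use the values that chose Rcsd1 and describe the same fall against its binding partner's RNA.

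The ratio of Capg to Capzb was 0.439, 0.456 and 0.442 with DMSO+VIP and 0.260, 0.326 and 0.233 with OCA+VIP, with no overlap. The CapZ genes together had 375 ± 8.07 CPM per kb with DMSO+VIP and 390 ± 35.4 with OCA+VIP (SD, n = 3), a difference smaller than the spread between the OCA libraries. The ratio of alpha to beta subunit RNA was 0.565, 0.519 and 0.491 in the vehicle libraries and 0.597, 0.706 and 0.658 in the OCA libraries. That ratio was below 1 in every library and did not overlap between groups, with the doubt on Capza1 reads noted above. Capza1 was 20.8% ± 2.43 of the alpha subunit RNA with DMSO+VIP and 22.5% ± 1.04 with OCA+VIP, and Twf1 was 77.5% ± 6.42 and 76.8% ± 4.0 of the twinfilin RNA (SD, n = 3). Both shares overlapped between the groups.

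The genes whose pattern over the 6 libraries was most like that of Rcsd1 were found by the Euclidean distance between log2 CPM profiles, each centred on its own mean, among 8706 tested genes whose mean was 10 CPM or more (leaving out predicted and small RNA genes). The nearest was Adra2b (distance 0.38), which encodes an alpha2 adrenergic receptor, then Trerf1 (0.75), a transcriptional regulator, Il11 (0.81), a cytokine of the interleukin 6 family, Angptl2 (0.86), a secreted angiopoietin-like protein, and Cyp1b1 (1.03), a cytochrome P450. Adra2b had 41.1, 52.1 and 44.9 CPM with DMSO+VIP and 3.97, 9.45 and 6.20 CPM with OCA+VIP. Like Rcsd1, it was lowest in OCA+VIP library 1 and highest among the OCA libraries in library 2. In OCA+VIP library 1 Adra2b, Trerf1 and Il11 stood at only 3.97, 1.43 and 4.30 CPM. Such levels rest on few counts, so the order of the OCA libraries in these genes is uncertain. The log2 fold changes of Trerf1, Il11, Angptl2 and Cyp1b1 were -2.64, -2.50, -2.14 and -2.62. None of the 6 capping genes came near: Capg ranked 437 by distance (2.64), and the others ranked from 3755 (Capzb) to 7203 (Capza1). The likeness rests on the difference between the 2 groups, for which Rcsd1 was chosen.

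**Figure D3:**
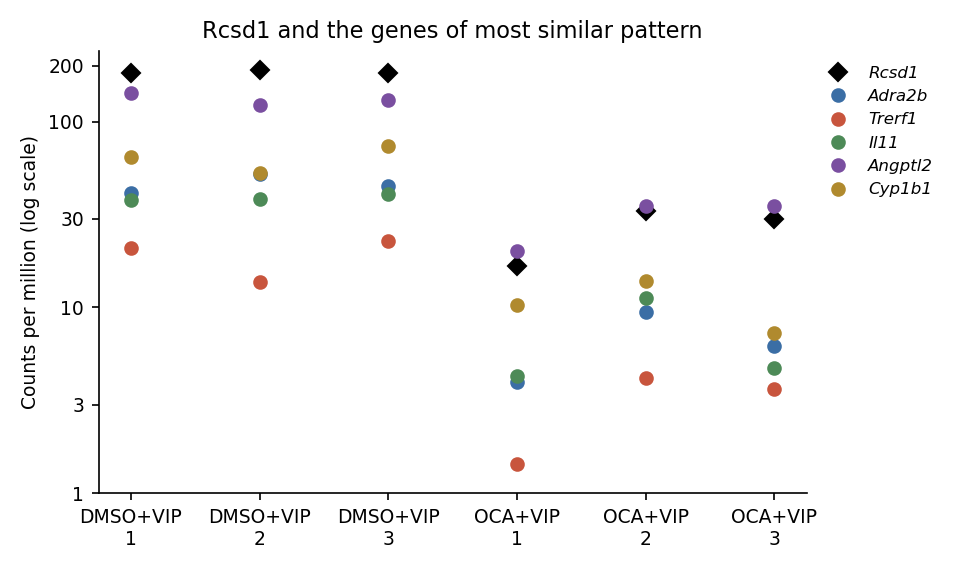
CPM on a log axis in each of the 6 libraries for Rcsd1 (black diamonds) and the 5 genes of nearest profile (circles). All 6 genes are lower in every OCA+VIP library than in any DMSO+VIP library, and 5 of them are lowest in OCA+VIP library 1. Several of these lowest levels rest on few counts.

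Around Rcsd1 on chromosome 1, the gene next to it on the side of lower coordinates was also lower with OCA. Mpzl1, which encodes a cell-surface glycoprotein of the myelin protein zero family and ends 14.4 kb from Rcsd1, had 214, 180 and 226 CPM with DMSO+VIP and 80.4, 127 and 135 CPM with OCA+VIP. The groups did not overlap, and the log2 fold change was -0.88 (SE 0.15, adjusted p = 0.00041 in edgeR and at most 0.0071 in all 15 alternatives). On the other side Creg1, at 53.7 kb, had a log2 fold change of 0.22 (adjusted p = 0.30). Cd247 (0.91, adjusted p = 0.36), Mpc2 (-0.09, 0.80) and Dcaf6 (0.27, 0.63) did not pass the test either. Pou2f1, which encodes the transcription factor OCT1 and lies 155 kb away, was higher (log2 fold change 0.74, SE 0.22, adjusted p = 0.028 in edgeR). It no longer passed without DMSO+VIP library 1 or 2 (adjusted p = 0.091 and 0.11) and without OCA+VIP library 2 or 3 (0.071 and 0.14). Exons of Rcsd1 overlap no other annotated gene.

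**Figure D4:**
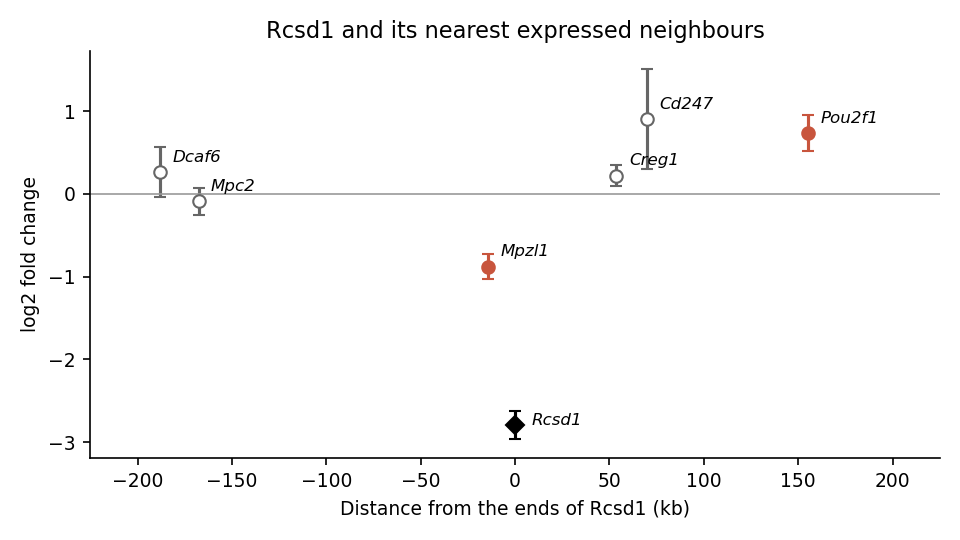
Fitted log2 fold change with SE (whiskers) of the nearest 3 genes with at least 1 CPM on each side of Rcsd1, against their distance from it in kb; filled red points passed the test, open points did not, and Rcsd1 (black diamond) was not tested. Mpzl1, at 14.4 kb, lies at -0.88, between Rcsd1 at -2.79 and the other neighbours.

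The RNAs of CapZ partners, of other actin-related proteins and of stress kinases were read from 9 lists of 120 genes, of which 91 were tested. Over these lists 3 genes were higher and 8 lower, 12.1% of those tested against 11.8% in the whole table, and the median log2 fold change was -0.08. None of the 5 tested regulators of CapZ passed the test in edgeR or in DESeq2. The unadjusted p in edgeR was under 0.05 for 2 of these 5 and for 23 of the 91 tested list genes. That share is not given here for the whole table, so the 2 of 5 has no background. Carmil1, which uncaps barbed ends, had a log2 fold change of -1.31 (SE 0.55, adjusted p = 0.13) at a mean of 8.06 CPM, where the libraries of a group differed widely. Washc2, whose shared stretch with Rcsd1 is printed above, had 524, 456 and 513 CPM with DMSO+VIP and 602, 583 and 611 CPM with OCA+VIP. Those groups did not overlap, with Washc2 on the higher side under OCA, but Washc2 missed the threshold (log2 fold change 0.25, SE 0.12, adjusted p = 0.19, and 0.034 without OCA+VIP library 2). Mtpn, encoding the CapZ inhibitor myotrophin, stood at -0.18 (SE 0.12, adjusted p = 0.36).

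None of the 4 other subunits of the WASH complex passed the test in edgeR or DESeq2, and 0 had an unadjusted p under 0.05 (Washc4 -0.21, Washc3 -0.14 and Washc5 0.06 on the log2 scale). In dynactin, the motor adaptor whose actin-like filament is itself capped by CapZ, 1 of 9 tested genes fell, Dctn4 (log2 fold change -0.47, adjusted p = 0.022). The call of Dctn4 was lost without DMSO+VIP library 3 (adjusted p = 0.14) or OCA+VIP library 1 or 3 (0.11 and 0.079). Actr1a, which encodes the filament's main subunit, had a log2 fold change of 0.21 (adjusted p = 0.31). Neither of the tested tropomodulin genes, whose products cap the pointed end, passed the test in edgeR or DESeq2 or had an unadjusted p under 0.05 (log2 fold changes of 0.21 for Tmod3 and 0.22 for Tmod1).

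Of 8 tested genes of the gelsolin family and other barbed-end cappers, 1 fell, the adducin gene Add3 (log2 fold change -0.55, adjusted p = 0.024). Its call was lost without DMSO+VIP library 1 or 2 (adjusted p = 0.085 and 0.091) or OCA+VIP library 1 or 3 (0.12 and 0.053). Gsn, which encodes gelsolin, a capper that also severs filaments and the relative of CapG, had 19.6, 12.9 and 12.9 CPM with DMSO+VIP and 32.5, 25.1 and 26.3 CPM with OCA+VIP. Its groups did not overlap, on the opposite side to Capg, but it missed the threshold (log2 fold change 0.87, SE 0.29, adjusted p = 0.052). Gsn did pass with DESeq2 (adjusted p = 0.049) and in edgeR without DMSO+VIP library 1 or OCA+VIP library 2 (0.041 and 0.049). Eps8, another capper, stood at -0.42 (adjusted p = 0.11).

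Among 18 tested genes of monomer binding and filament turnover, 1 fell, Coro2b, a coronin gene (log2 fold change -1.25, adjusted p = 0.017). That call was lost without DMSO+VIP library 3 (adjusted p = 0.071) or OCA+VIP library 1 or 3 (0.063 and 0.067). Of 23 tested genes of nucleation and elongation, 2 fell, the formin genes Daam2 (-1.90, adjusted p = 0.010) and Daam1 (-0.60, adjusted p = 0.022). Formins hold on to growing barbed ends, the place where CapZ binds. Daam2 stood at 2.65 and 2.76 CPM in OCA+VIP libraries 1 and 3, so the size of its fall rests on few counts. With counts divided by 6 its log2 fold change was -1.62. Daam2 did not pass without OCA+VIP library 1 or 3 (adjusted p = 0.054 and 0.063), nor Daam1 without DMSO+VIP library 1 (0.16) or OCA+VIP library 1 or 3 (0.082 and 0.14).

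Of 10 tested crosslinker genes, 2 rose and 3 fell. Flnc, encoding filamin C, rose (log2 fold change 0.94, adjusted p = 0.0084, and 0.075 without OCA+VIP library 1), while the alpha-actinin gene Actn1 (-0.43, adjusted p = 0.021) and the filamin A gene Flna (-0.41, adjusted p = 0.036) fell. Leaving out any library other than OCA+VIP library 2 ended both of these calls, with adjusted p of 0.058 to 0.10 for Actn1 and 0.053 to 0.16 for Flna. They were also lost with a replicate block (adjusted p = 0.081 and 0.15), and that of Flna with counts divided by 6 (0.056). The spectrin genes Sptan1 (0.38, adjusted p = 0.048) and Sptbn1 (-0.46, adjusted p = 0.039) were named after their values were seen. Sptan1 did not pass when any of those same libraries was left out (adjusted p = 0.098 to 0.24) or with a replicate block (0.13), RLE scaling (0.055), upper-quartile scaling (0.071) or counts divided by 6 (0.053). Sptbn1 did not pass without DMSO+VIP library 1 or 2 or OCA+VIP library 1 or 3 (adjusted p = 0.12 to 0.23) or when scaled to library size alone (0.059).

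A further list held stress-activated kinase genes and was drawn up by family. Whether each of these kinases acts on CapZIP was not examined. Of its 12 tested genes, 1 rose and 0 fell in edgeR and DESeq2 alike. The unadjusted p in edgeR was under 0.05 for 5 of the 12, of which 3 had a lower level. Map2k3, which encodes the p38-activating kinase MKK3, had 191, 202 and 191 CPM with DMSO+VIP and 356, 334 and 341 CPM with OCA+VIP. Every OCA library was above every vehicle library by a gap far wider than the spread within either group. The log2 fold change was 0.81 (SE 0.12, adjusted p = 8.5e-05), and Map2k3 was the only 1 of the 11 called list genes that stayed past the threshold in all 15 alternatives. Mapkapk3, a kinase that p38 activates, stood at 0.43 (adjusted p = 0.063), and Mapk9, which encodes JNK2, at -0.47 (adjusted p = 0.064). Both passed without DMSO+VIP library 2 (adjusted p = 0.0083 and 0.013) and with limma-voom (0.023 and 0.036).

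**Figure D5:**
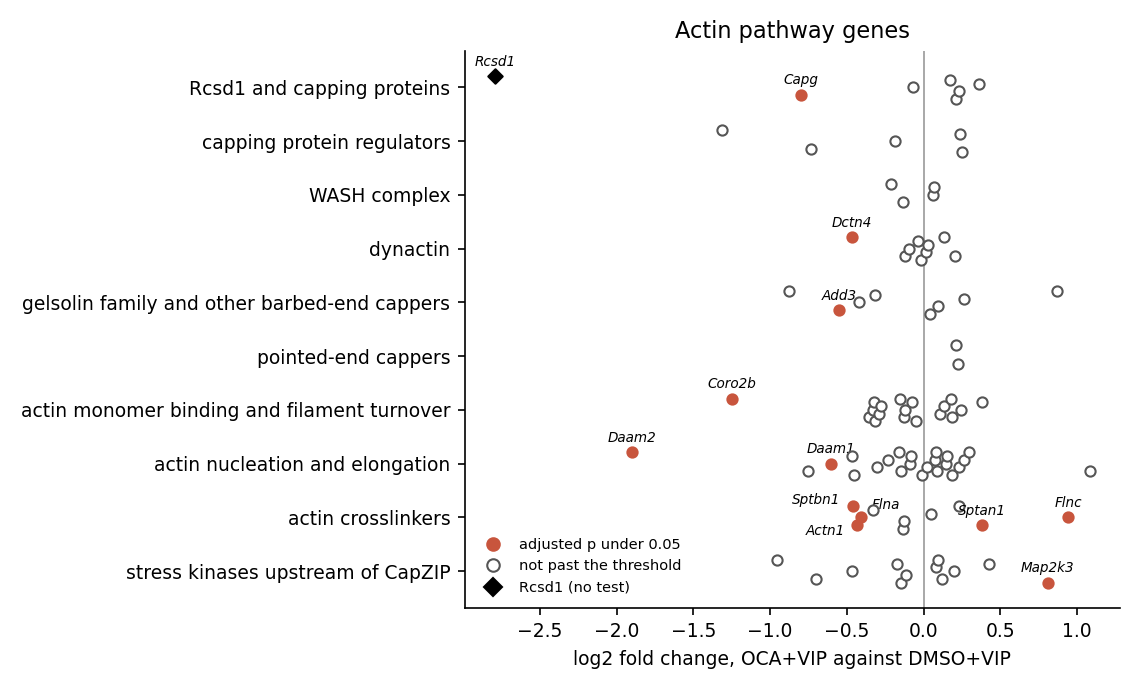
Fitted log2 fold change of each tested gene in Rcsd1 and the capping set and in the 9 lists (points spread vertically for legibility); filled red points passed the test, open points did not, and Rcsd1 (black diamond) was not tested. Rcsd1, which was chosen for its fall in this comparison, lies at -2.79, farther from 0 than every other gene shown. The next is Daam2 at -1.90, and 12 of the tested genes shown passed, Capg and 11 list genes.

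Promoters (250 bases before to 50 after the start, RefSeq, GRCm38.p6) were matched for Capza1, Capza2, Capzb, Capg and Twf1. Rcsd1 and Twf2 had no entry in the promoter set, so their promoters were not searched. The core of the cAMP response element, TGACG, on either strand, was found in those of Capzb and Twf1, 2 of 5, and in 20.8% of all 32851 promoters. The full element TGACGTCA, which holds that core on both strands, was found in none of the 5 and in 1.79% of all. The AP-1 motif TGANTCA was in none of the 5 and in 7.81% of all. Such matches describe the letters in these windows only.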

How the data were processed

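The values are from 1 table, with 24940 genes, that the authors deposited; per the file headers they are expected counts per gene, not adjusted for library size, in the layout of HOMER. The submitters' processing notes name mm10, STAR, HOMER and DESeq2. Their roles, versions and any use of strand are not given in the sources used here. Columns were assigned to groups by name; libraries are numbered as the columns are. Of the counts above 0 and up to 30, 55.6% to 58.2% lay within 0.5 of a multiple of 6 in 5 libraries and 37.5% in OCA+VIP library 2.

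Counts were rounded and tested with edgeR 4.0.16 (R 4.3.3): TMM, filterByExpr by group (minimum count 10, total 15), a two-sided quasi-likelihood F test over all 11286 genes and Benjamini-Hochberg adjustment (threshold 0.05, 4 residual degrees of freedom). CPM used column totals. The steps were tested on simulated data. Sequences and overlaps came from GRCm38 with GENCODE. The members and lists were chosen with earlier results of these data known.

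Named genes were the 7 members, up to 3 genes of smallest p per list (mean CPM of 1 or more), the 5 of most similar pattern and the 3 nearest neighbours on each side. Alternatives were other scalings and filters, DESeq2 1.42.0, limma-voom 3.58.1, a replicate block, leaving out each library and, chosen after seeing the data, counts divided by 6.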

Additional observations from a re-analysis of the deposited data

How the results depend on the processing

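Rcsd1, chosen for its fall in these same libraries, kept its direction in all 15 alternatives. The 6 capping genes kept their direction and their side of the threshold in all 15, except the direction of Capzb (-0.15 to 0.059 on leaving out 1 library each, above 0 only without OCA+VIP library 2). Leaving out 1 library gave 737 to 1478 called genes over the whole table: 877 in the fit lacking DMSO+VIP library 1, 737 and 751 in those lacking OCA+VIP library 1 or 3. On the actin lists it gave 2 to 14 called genes: 6 if DMSO+VIP library 1 or 3 was absent, 2 if OCA+VIP library 1 or 3 was. The other settings gave 1118 to 1620 called genes. With a replicate block 1118 genes were called, 8 of them on the actin lists, Rcsd1 stood at -2.84 and Capg at -0.80 (adjusted p = 0.0011). Whether the numbers pair the samples is not stated in the labels. Same-numbered libraries had correlations of deviations of -0.035, -0.050 and 0.030, and the other pairs had -0.031 to 0.078. Values so near 0 cannot show whether the samples were paired. Uncalled log2 fold changes whose sign depended on 1 library were those of Washc3 (-0.34 to 0.063, above 0 if DMSO+VIP library 3 or OCA+VIP library 1 was absent), Washc5 (-0.015 to 0.14, below 0 if DMSO+VIP library 1 was) and Mpc2 (-0.24 to 0.073, above 0 if OCA+VIP library 2 was); the cause was not tested. Low counts limit Twf2 most among the 6 capping genes.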
